A study of Mus musculus with 8 samples.

Results

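Low-dose rosemary extract was compared with water in the brains of mice put through the tail suspension test (TST). The test suspends a mouse by the tail and scores how long it stays immobile. The comparison holds 4 of the 8 arrays of the study, 2 labelled with 10 mg/kg rosemary extract (RE) and TST and 2 labelled with water and TST, chosen by their titles. It covers 19505 named genes, 1 row per gene, out of 22206 rows on the Clariom S mouse array, a microarray that reads each gene with probes spread over its exons. Where several rows carried 1 gene, the row with the highest mean over the 8 arrays was kept.

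All animals were male ICR mice, an outbred stock, bought at 8 weeks of age, kept for 1 week before the experiments and treated for 7 days, with 7 mice assigned to each group. RE was given dissolved in the drinking water, and the water groups received plain drinking water. The remaining 4 arrays, water without TST and high-dose RE with TST, lend their spread to the test and are shown for orientation. For the high dose the titles give 100 mg/kg and the source label gives 50 mg/kg. The control names in the labels run against the titles, with positive control attached to the water group that had no TST, and the titles set the groups here. The tissue is labelled limbic system and also hippocampus. The labels do not say whether a sample was 1 mouse or a pool, so a p-value here reflects no more than the spread between these samples, which may be technical.

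Rosemary (Rosmarinus officinalis) is a culinary herb whose extracts are rich in the phenolic diterpenes carnosic acid and carnosol and in rosmarinic acid. Carnosic acid is known for activating the transcription factor Nrf2, which drives antioxidant and detoxifying enzymes. The limbic system is a set of connected regions, among them hippocampus, amygdala, hypothalamus and parts of thalamus and cortex, that serve emotion, memory and the response to stress. The cerebellum is not one of them, and its granule cells are marked by Gabra6, a GABA-A receptor subunit, and Cbln1, a secreted organizer of synapses onto Purkinje cells.

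The arrays were first read for cerebellar markers, since the 2 water arrays differed in them. Gabra6 stood at 5.4 on water with TST replicate 1 and at 16.37 on replicate 2, against 5.48 and 4.69 on the low-dose arrays (deposited log2 values). Cbln1 stood at 9.64 and 16.44 on the water arrays and at 9.81 and 9.85 on the low-dose arrays. Water replicate 2 was thus far above the other 3 arrays for both genes, and the low-dose arrays lay close to water replicate 1. Outside the comparison, water without TST replicate 1 was high too, with Gabra6 at 14.31 and Cbln1 at 14.47, against 8.42 and 10.51 on its partner. That array enters the shared spread, the covariate fit and the correlations over the 8 arrays. High-dose RE gave 7.64 and 5.14 for Gabra6 and 10.12 and 9.77 for Cbln1. Over the list of cerebellar granule cell markers, 18 of 18 measured genes had a lower mean with low-dose RE, none of them past the threshold used below. The median difference of that list was -0.03 against water replicate 1 and -3.56 against water replicate 2. Purkinje cell markers gave medians of 0.035 and -2.37 in the same order.

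Marker genes of the labelled tissue ran the opposite way. Cortical excitatory neuron markers had a median difference of -0.13 against water replicate 1 and of 2.31 against replicate 2, and hippocampal pyramidal neuron markers of -0.12 and 1.66. Each gene below is therefore given on both water arrays. Where it matters, a fit without water replicate 2 is given too (636 genes, or 3.26%, past the threshold used below), and a fit with the mean of Gabra6 and Cbln1 on each array as a covariate (564 genes, or 2.89%). In bulk tissue, fewer cells of a type and less RNA per cell cannot be told apart.

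**Figure D1:**
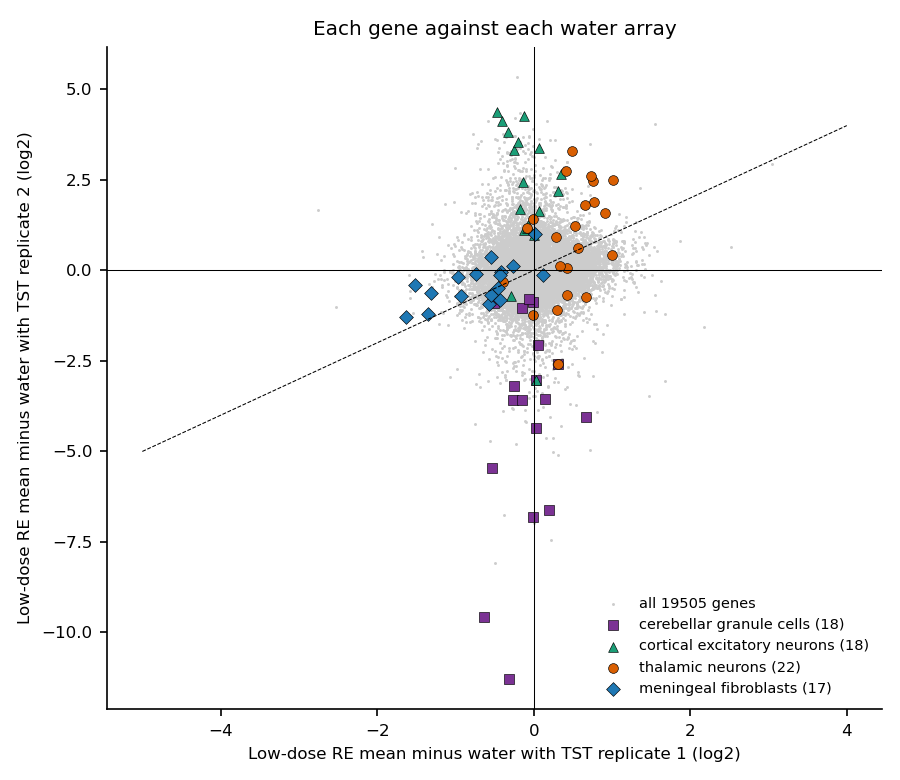
Difference of the low-dose mean from water with TST replicate 1 (x axis, log2) and from water with TST replicate 2 (y axis, log2) for all 19505 genes in grey, with 4 marker lists in colour and the line of equal differences dashed. Cerebellar granule cell markers lie near 0 on the x axis (median -0.03) and far below 0 on the y axis (median -3.56), whereas thalamic markers lie mostly above 0 and meningeal markers mostly below 0 on both.

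Across all genes, 677 of 19505 (3.47%) passed the study's threshold, a fold change above 1.2 with an unadjusted p under 0.05, here by limma's moderated test on all 8 arrays. Of these, 350 (1.79%) were higher and 327 (1.68%) were lower with low-dose RE. Where no gene differs, a threshold at that p passes at most 5% of genes on average, and a single data set can lie above or below that share. No gene passed a Benjamini-Hochberg adjusted p of 0.05 by limma (lowest adjusted p = 0.946), and none did by the analysis of variance that the methods name, in which 430 genes passed the study's threshold. Every call below is therefore made on unadjusted p-values. The median difference over all genes was 0.01 and the median absolute difference 0.22, and 51.2% of genes had a higher mean with low-dose RE.

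The count depended on which array stood for a group. It was 3388 without water replicate 1, 1469 without low-dose replicate 1 and 424 without either high-dose array. It was 610 without low-dose replicate 2 and 636 without water replicate 2. Of the 677 genes, 213 stayed past the threshold without water replicate 2 and 237 with the cerebellar covariate, and 193 did so in both. These 2 fits are not separate checks. The covariate differed most within the water pair with TST, at 7.52 and 16.405, so both fits turn on water replicate 2. None of the 677 changed direction in either fit. At 673 of them the groups did not overlap, so leaving out water replicate 2 could not turn the sign. Of the 677, 29.5% had a correlation beyond 0.7 in size with the mean of Gabra6 and Cbln1 over the 8 arrays, against 17.5% of all genes. The calls were made on these same arrays, and the compared groups differ in the mean of these markers. These shares therefore carry no test. The set counted next comes from the same 677 genes. It includes olfactory and vomeronasal receptors (such as Olfr201 and Vmn2r79) and predicted loci (such as Gm5795), which were left out of the genes named below. Past the threshold in all 8 fits that leave out 1 array were 57 genes, 32 higher and 25 lower, and all 57 also passed with the covariate.

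Arrays of the same group differed from each other too, and the source of this was not tested. The water arrays differed by more than 1 log2 unit at 2487 genes and the low-dose arrays at 1230. Across all rows, water replicate 1 correlated more closely with low-dose replicates 1 and 2 (r = 0.993 and 0.986) than with its own partner (r = 0.968), and the low-dose arrays correlated with each other at r = 0.985. These r are across rows of the same arrays and are given as a description.

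Thalamic neuron markers had the highest median against water replicate 1 of the 40 gene lists with at least 5 measured genes, and they were higher against water replicate 2 as well. Of its 22 measured genes, 9 were past the threshold higher and none lower, where 1.79% of all genes were past it higher. Both low-dose values exceeded both water values at 12 of the 22, against 12.8% of all genes. The list median was 0.655, against 0.01 over all genes. It was 0.46 against water replicate 1, with 18 of 22 genes higher, and 1.05 against water replicate 2. With the covariate it was 0.54. The calls were fewer in both alternative fits: without water replicate 2, Tcf7l2 and Slc17a6 alone were past the threshold, and with the covariate Tcf7l2 and Cacna1g alone. Of the 9 called genes, Tcf7l2 alone kept its call in either fit.

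Tcf7l2, a transcription factor of the Wnt pathway that sets the identity of thalamic and habenular neurons, had the lowest p-value of the list. Its value was 13.87 and 12.37 on the water arrays and 14.94 and 14.82 on the low-dose arrays. The low-dose arrays lay close together and above all 6 others, although the high-dose arrays came near them at 14.72 and 14.68. Water without TST gave 13.58 and 13.27, within the range of the water arrays with TST. The difference was 1.76 (SE 0.43, n = 2 and 2, limma, unadjusted p = 0.00326, adjusted p = 0.946). It was 1.01 without water replicate 2 and 1.26 with the covariate, and it stayed past the threshold in all 8 fits that leave out 1 array.

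Prkcd, protein kinase C delta, which is strong in relay neurons of the thalamus, stood at 13.76 and 12.04 with water and at 14.92 and 14.12 with low-dose RE. Rgs16, a brake on G-protein signalling that marks thalamic neurons, stood at 9.77 and 7.88 with water and at 10.58 and 10.42 with low-dose RE. Synpo2, an actin-binding protein, stood at 8.46 and 5.67 with water and at 9.23 and 8.68 with low-dose RE. In all 3 genes the groups did not overlap and water replicate 2 was the lowest of the 4 arrays. Their differences of 1.62, 1.675 and 1.89 became 0.76, 0.73 and 0.495 without that array and then missed the threshold. They missed it without low-dose replicate 1 as well, at 1.22, 1.595 and 1.615, and Synpo2 also without low-dose replicate 2, at 2.165, and without either high-dose array.

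The other 5 called thalamic genes are named because they were called, after their values were seen. Lef1, the partner of beta-catenin in Wnt target transcription, was at 7.75 and 6.63 with water and at 8.88 and 8.16 with low-dose RE. Shox2, a homeobox factor of thalamic neurons, was at 8.74 and 8.07 with water and at 10.32 and 8.98 with low-dose RE. Lhx9, a LIM homeobox factor of the developing thalamus, was at 7.68 and 6.98 with water and at 8.26 and 8.16 with low-dose RE. All 3 were higher on each low-dose array than on each water array. Their differences from water replicate 1 alone were 0.77, 0.91 and 0.53, which missed the threshold. They missed it without low-dose replicate 1 too, at 0.97, 0.575 and 0.83, and Lhx9 also without low-dose replicate 2, at 0.93. Ramp3, a subunit of receptors of the calcitonin family, differed by 1.23 from both water arrays and by 0.65 from replicate 1. Plekhg1 differed by 1.58 from both and by 0.415 from replicate 1, and its water replicate 1 equalled its low-dose replicate 2 at 12.04. Without low-dose replicate 1 they differed by 0.73 and 1.165. Both missed the threshold in those fits and without either high-dose array, as Plekhg1 did without either array of water without TST.

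Slc17a6, the vesicular glutamate transporter VGLUT2 of thalamic and other subcortical neurons, missed the threshold in the fit on all 8 arrays and passed it without water replicate 2. All 9 called genes were lower on water replicate 2 than on replicate 1, and Slc17a6 was not. It was at 11.92 and 12.51 with water and at 13.14 and 12.71 with low-dose RE. Its difference was 0.71 (SE 0.32, limma, unadjusted p = 0.058), and without water replicate 2 it was 1.005 with unadjusted p = 0.0217. Zfhx3, Tnnt1 and Adarb1 did not overlap between the groups either and missed the threshold, with differences of 0.59, 0.60 and 0.225. The remaining 9 uncalled genes of the list overlapped. Gbx2, a homeobox factor of the thalamic primordium, was at 7.55 and 6.11 with water and at 7.79 and 7.29 with low-dose RE. Calb2, calretinin, which cerebellar granule cells also express, stood at 11.29 and 14.19 with water and at 11.64 and 11.55 with low-dose RE. The values of both genes overlapped between the groups.

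On the other arrays the thalamic list averaged 0.22 and 0.24 with high-dose RE and -0.30 and -0.27 with water without TST, relative to each gene's mean over the 8 arrays. The low-dose arrays were at 0.53 and 0.17 and the water arrays with TST at -0.11 and -0.48. Low-dose replicate 2 thus lay no higher than the high-dose arrays. Of the 9 called genes, Tcf7l2 and Ramp3 had both low-dose values above all 6 other arrays. The high-dose arrays share the water control arrays with this comparison. The part that the amount of thalamus in each dissection played was not tested, and dissection and treatment cannot be told apart with these samples.

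**Figure D2:**
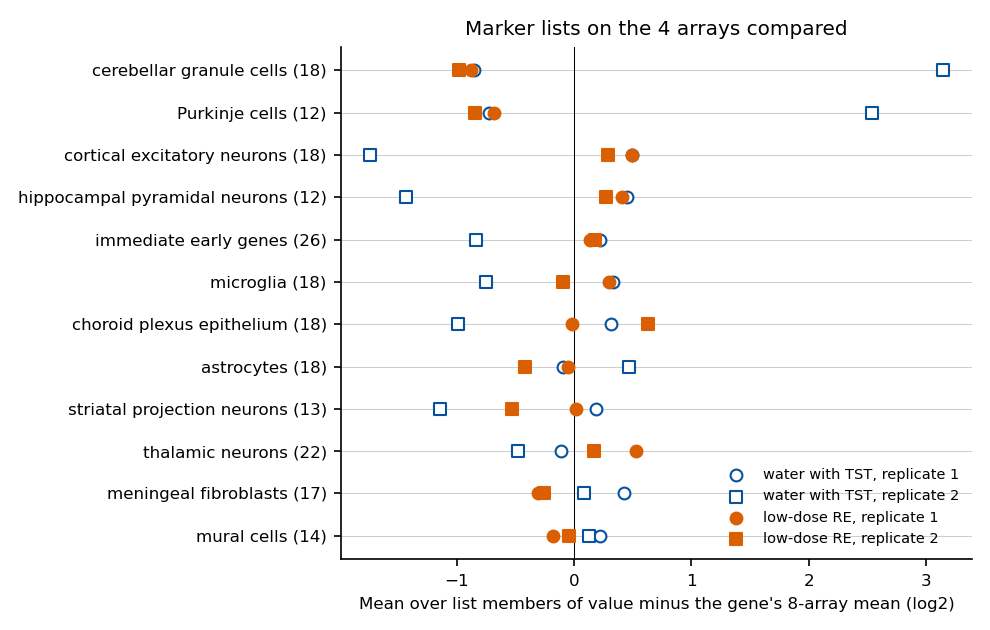
Mean over the members of each marker list of the value minus that gene's mean over the 8 arrays (x axis, log2), 1 point per array for the 4 arrays compared, with the number of genes measured in brackets. In the thalamic row both low-dose points (0.53 and 0.17) lie right of both water points (-0.11 and -0.48), in the meningeal row both lie left of them, and in the cerebellar and cortical rows water replicate 2 stands apart from the other 3, whose points nearly coincide.

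Because Tcf7l2 and Lef1 encode factors of the TCF/LEF family, the promoters of the 9 called thalamic genes were searched for the core letters that family reads, CTTTGA on either strand (TCAAAG on the other). The window was the 250 bases before each RefSeq transcription start (GRCm38.p6). All 9 genes matched the RefSeq promoter table, with 14 start sites. The letters occurred at 3 of the 9 genes and in 3 of the 14 windows, against 15.8% of 27025 genes and 13.8% of 32851 windows in the table. The 3 windows are shown because they are those of called genes that hold the letters, in the direction of transcription with the match in capitals.
Shox2, minus strand, chr3:66981772-66982021: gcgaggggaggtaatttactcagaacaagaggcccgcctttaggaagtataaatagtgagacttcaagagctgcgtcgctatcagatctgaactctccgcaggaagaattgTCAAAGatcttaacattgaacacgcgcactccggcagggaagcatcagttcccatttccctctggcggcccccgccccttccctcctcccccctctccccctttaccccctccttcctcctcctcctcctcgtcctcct
Lef1, plus strand, chr3:131156044-131156293: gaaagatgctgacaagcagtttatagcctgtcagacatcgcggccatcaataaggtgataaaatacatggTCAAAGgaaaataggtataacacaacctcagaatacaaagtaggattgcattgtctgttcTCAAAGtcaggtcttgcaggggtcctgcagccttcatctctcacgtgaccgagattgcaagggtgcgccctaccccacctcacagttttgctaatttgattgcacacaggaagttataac
Prkcd, minus strand, chr14:30626209-30626458: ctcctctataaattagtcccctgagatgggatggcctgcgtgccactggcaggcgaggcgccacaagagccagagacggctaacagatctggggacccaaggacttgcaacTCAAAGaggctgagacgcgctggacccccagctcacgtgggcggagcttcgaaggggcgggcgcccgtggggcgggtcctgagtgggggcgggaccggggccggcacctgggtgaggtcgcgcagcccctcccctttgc
In Shox2 and in Prkcd the match begins 139 bases before the start. In Lef1 the matches begin 180 and 120 bases before the start, and this is 1 of 4 start sites of that gene. The Prkcd window is 1 of 2. Neither window of Tcf7l2 held the letters. A match is a description of the letters and not a bound site.

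The list with the lowest median against water replicate 1 was that of meningeal fibroblast markers, genes of the cells that build the membranes around the brain. Of 17 measured genes, 15 had a lower mean, 4 were past the threshold lower (1.68% of all genes were) and 10 did not overlap (12.3% of all genes did not, in that direction). The list median was -0.58. It was -0.545 against water replicate 1 and -0.39 against water replicate 2, and the number of genes past the threshold was 6 without water replicate 2 and 3 with the covariate (Ogn, Ptgds and Bgn). The array means of the list were 0.42 and 0.08 with water and -0.31 and -0.26 with low-dose RE. High-dose RE gave 0.00 and -0.26, and water without TST gave 0.40 and -0.09, so high-dose replicate 2 was at the low-dose level and the other 3 arrays were above it.

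Ptgds, prostaglandin D2 synthase, which makes a sleep-promoting prostaglandin and is secreted by the meninges and choroid plexus into the cerebrospinal fluid, stood at 16.42 and 16.08 with water. With low-dose RE it stood at 15.35 and 14.22. The groups did not overlap, and the low-dose arrays differed from each other by more than the water arrays did. The difference was -1.465 (SE 0.48, limma, unadjusted p = 0.0148, adjusted p = 0.946), and it was -1.635 without water replicate 2 and -1.32 with the covariate. It missed the threshold without low-dose replicate 2 at -0.90 and without water replicate 1 at -1.295. High-dose RE gave 15.93 and 15.11, and water without TST 16.76 and 15.76. Of those values, only high-dose replicate 2 lay below low-dose replicate 1, and both values of water without TST lay above the low-dose arrays.

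Ogn, osteoglycin, a small proteoglycan of connective tissue, stood at 10.34 and 10.19 with water and at 8.89 and 9.09 with low-dose RE. The gap of 1.10 between the groups exceeded the difference within either pair of arrays. Its difference was -1.275 (SE 0.40, limma, unadjusted p = 0.0130), and it missed the threshold without low-dose replicate 1 at -1.175. High-dose replicate 2 was lower still, at 8.73. Slc13a3, a sodium-dependent carrier of dicarboxylates, stood at 8.15 and 8.51 with water and at 7.86 and 7.30 with low-dose RE. It missed the threshold without water replicate 2 at -0.57, without low-dose replicate 2 at -0.47 and without either array of water without TST.

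Bgn, biglycan, a related proteoglycan that is named after its values were seen, was at 7.57 and 7.33 with water and at 6.66 and 6.61 with low-dose RE. Its difference of -0.815 stayed past the threshold in all 8 fits that leave out 1 array. Dcn, decorin, was at 11.99 and 11.29 with water and at 10.58 and 10.78 with low-dose RE. Its groups did not overlap, but the difference of -0.96 missed the threshold by limma (unadjusted p = 0.0812). The list holds 2 further small leucine-rich proteoglycans, Fmod and Lum, with differences of -0.58 and 0.005, and both overlapped between the groups. Collagen genes of the same cells were nearer together: Col1a2 differed by -0.62 with no overlap, and Col1a1 and Col3a1 overlapped between the groups. Igfbp2, which binds insulin-like growth factors, had a higher mean with low-dose RE, by 0.51, with overlap. Whether the amount of membrane left on the tissue played a part was not tested.

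Markers of mural cells, which wrap blood vessels, were mostly lower by a smaller amount. Of 14 measured markers 12 had a lower mean and none passed the threshold, with a list median of -0.21. Choroid plexus markers, in contrast, varied between single arrays. Their mean was -0.99 on water replicate 2, and 0.32, -0.02 and 0.63 on water replicate 1 and the low-dose arrays, and Ttr, the thyroid hormone carrier made in quantity by that epithelium, stood at 17.36 and 13.98 with water and at 17.23 and 17.91 with low-dose RE. The low-dose values of Ttr lay on either side of water replicate 1. Kcne2, the 1 marker of that list past the threshold, was at 7.91 and 6.54 with water and at 8.32 on both low-dose arrays. Its difference of 1.095 was 0.41 against water replicate 1, and it missed the threshold with the covariate at 0.63.

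**Figure D3:**
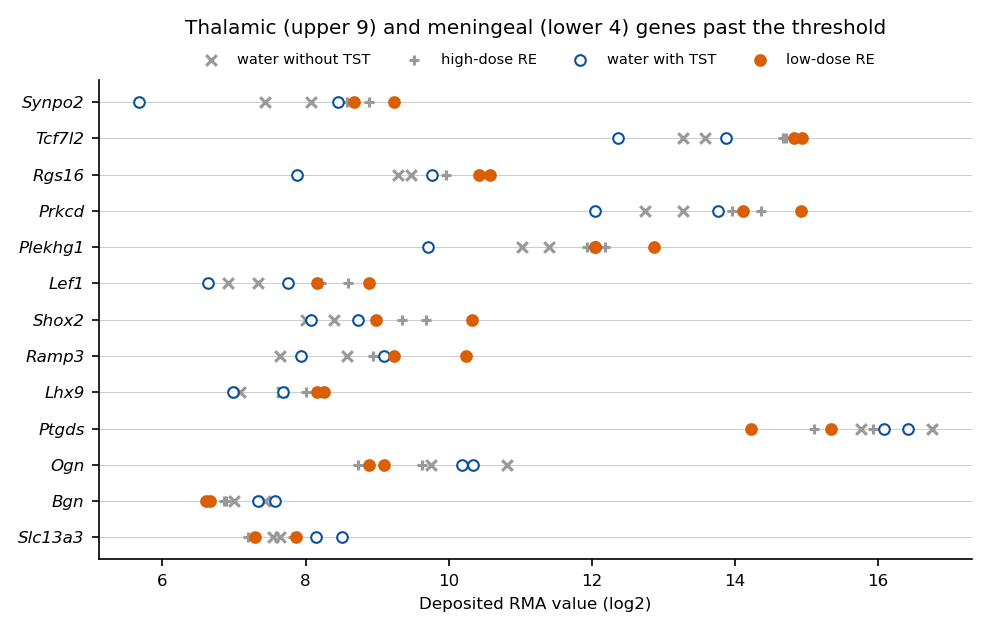
Deposited log2 RMA value (x axis) on each array for the 9 thalamic genes and the 4 meningeal genes past the threshold, with the arrays of the other groups in grey. Low-dose points lie right of the water points in the upper 9 rows, except for the tie at 12.04 in Plekhg1, and left of them in the lower 4. The grey points of the high-dose group lie among or beside the low-dose points in most thalamic rows.

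Over all genes with a usual symbol and a level above the median, the genes with the widest gap between the groups were chosen among those past the threshold whose difference moved by less than 1.5 times both without water replicate 2 and with the covariate. This choice used the values of the comparison, so their differences are a description. The 66 higher and 94 lower genes that met the conditions were ranked by gap and 10 of each are named. Of the 20, 13 stayed past the threshold in all 8 fits that leave out 1 array. The exceptions were Loxl3, Brd9, Ctla2a, Ogn, Fgf11, Ptgds and Mamdc2. The choice favoured genes that stay past the threshold, and leaving out an array outside the comparison cannot change a difference. How many stayed is therefore a description too.

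Among those higher with low-dose RE, Acot13, a mitochondrial acyl-CoA thioesterase of fatty acid metabolism, was at 12.78 and 12.65 with water and at 13.55 on both low-dose arrays. Its difference was 0.835 (SE 0.24), and its spread within each pair was a small part of that. High-dose RE gave 13.45 and 13.08, and water without TST 13.22 and 13.45, so the water arrays with TST stood below all 6 others. The low-dose arrays stood above all 6 as well, by a small margin.

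Ccdc136, a coiled-coil protein, was at 11.76 and 11.71 with water and at 12.44 and 12.43 with low-dose RE. Its other arrays lay at 11.95 and 11.97 with high-dose RE and at 11.48 and 11.32 with water without TST. The low-dose pair was the highest of the 4 groups and water without TST the lowest. Ocel1, a protein with an occludin-like domain, was at 8.0 and 7.99 with water and at 8.78 and 8.67 with low-dose RE, with the other 4 arrays between these pairs, from 8.13 to 8.43.

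Dll1, the Delta-like ligand of Notch receptors, was at 7.23 and 7.07 with water and at 7.87 and 7.89 with low-dose RE. Every array of the other groups was between 7.73 and 7.87, so the water arrays with TST were the ones that stood apart. Zfp948, a zinc finger protein, was at 9.71 and 9.67 with water and at 10.51 and 10.38 with low-dose RE, and high-dose RE reached 10.61. Cyth4, an exchange factor for ARF GTPases found mainly in blood and microglial cells, was at 6.81 and 6.21 with water and at 7.39 and 7.56 with low-dose RE. The low-dose pair was above all 6 other arrays in Cyth4 and not in Zfp948.

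Vwa5b2 differed by 0.74 (SE 0.23), with low-dose values of 9.80 and 9.74 above all 6 other arrays. Loxl3, an enzyme that crosslinks collagen and elastin, differed by 0.83, and Ctla2a, an inhibitor of cysteine proteases, by 0.81. Brd9, a bromodomain subunit of a chromatin remodelling complex, differed by 0.93 (SE 0.40). Loxl3, Ctla2a and Brd9 missed the threshold without water replicate 2, at 0.72, 0.605 and 0.64. They also missed it without low-dose replicate 1, at 0.75, 0.775 and 0.88. Brd9 and Ctla2a missed it without low-dose replicate 2 too, at 0.98 and 0.845, and Brd9 without either array of water without TST.

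Among those lower, Ctns, cystinosin, the transporter that exports cystine from lysosomes, was at 10.76 and 10.93 with water and at 9.88 and 9.81 with low-dose RE. Its difference was -1.0 (SE 0.24, limma, unadjusted p = 0.00257, adjusted p = 0.946). The other 4 arrays lay between the pairs, from 10.06 to 10.55. Ccdc167, a small membrane protein, was at 8.64 and 8.99 with water and at 7.80 and 7.83 with low-dose RE, and its other arrays were between 8.41 and 8.63. Both low-dose arrays were the lowest of the 8 for either gene, and both water arrays with TST the highest.

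Itih5, a heavy chain of the inter-alpha-trypsin inhibitors that bind hyaluronan in the extracellular matrix, was at 10.22 and 9.99 with water and at 9.27 and 9.01 with low-dose RE. The other 4 arrays lay between, from 9.58 to 9.87. Lgi2, a secreted leucine-rich protein of synapses, was at 11.71 and 11.86 with water and at 10.92 and 10.61 with low-dose RE. High-dose RE gave 10.78 and 11.11, which overlapped the low-dose pair. Ltbr, the lymphotoxin beta receptor of the tumour necrosis factor family, was at 8.74 and 8.76 with water and at 8.09 and 8.0 with low-dose RE, and high-dose RE was lower at 8.0 and 7.85.

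Ranbp3l, a protein of nuclear export, differed by -0.95 (SE 0.28) with low-dose values of 8.59 and 8.36. Fgf11, an intracellular member of the fibroblast growth factor family, also differed by -0.95 (SE 0.30), and it missed the threshold without low-dose replicate 2 at -0.785. Mamdc2, an extracellular matrix protein, differed by -0.745. It missed the threshold without water replicate 1, water replicate 2 or low-dose replicate 2, at -0.765, -0.725 and -0.66.

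Over all genes, both low-dose arrays lay beyond all 6 other arrays on the side of their difference at 1040 genes (5.33%), and both water arrays with TST did so at 1109 (5.69%). Among the 677 called genes the figures were 256 (37.8%) and 259 (38.3%). Both held at 51 of the 677, and neither at 213. Since the calls were made on these same arrays, these shares carry no test.

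**Figure D4:**
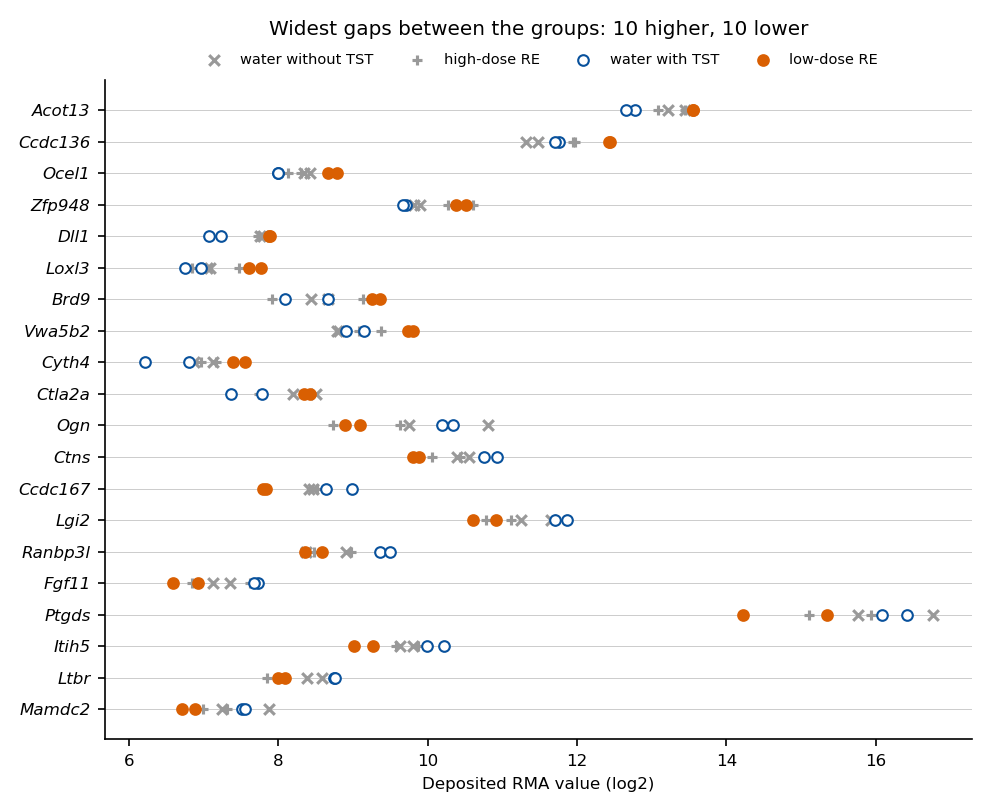
Deposited log2 RMA value (x axis) on each array for the 10 genes higher and the 10 genes lower with low-dose RE that had the widest gap between the groups, with the other groups in grey. The pairs of low-dose and water points do not overlap in any row, as the choice of genes requires, and in Acot13, Ocel1, Ctns, Ccdc167 and Itih5 the grey points lie between them.

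The largest differences were of another kind. Of the 10 genes higher and the 10 lower with the largest difference past the threshold and no overlap, 15 missed the threshold without water replicate 2, and 17 shrank by more than 1.5 times. In 15 of the 20 the correlation with the cerebellar markers over the 8 arrays was beyond 0.7 in size, against 1 of the 20 genes with the widest gaps, which had been chosen in part for moving little with these markers.

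Cwc22, a splicing factor of the exon junction machinery, had the largest difference among the genes past the threshold, 2.985 (SE 1.28). It was at 8.10 and 8.21 with water and at 8.57 and 13.71 with low-dose RE. Low-dose replicate 2 alone was high, and the other 7 arrays lay between 7.73 and 8.57. Without that array the difference was 0.415, and without low-dose replicate 1 it was 5.555. It missed the threshold in every fit that leaves out 1 array but the fit without low-dose replicate 1, with 2.93 without water replicate 1 and 3.04 without water replicate 2.

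Masp2, a serine protease of the lectin pathway of complement, was at 7.71 and 5.2 with water and at 9.44 and 9.07 with low-dose RE. The other 4 arrays lay between 7.26 and 7.71, close to water replicate 1. The low-dose arrays were above all 6 others by at least 1.36, and water replicate 2 was below all 7 others. Its difference was 2.80 (SE 0.66, limma, unadjusted p = 0.00256, adjusted p = 0.946), and it was 1.545 without water replicate 2 and 1.88 with the covariate. It stayed past the threshold in all 8 fits that leave out 1 array.

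Nt5dc3 was at 11.74 and 8.96 with water and at 11.89 and 13.03 with low-dose RE, and it missed the threshold without water replicate 2 at 0.72 and without low-dose replicate 2 at 1.54. Sstr2, a somatostatin receptor, was at 10.06 and 7.49 with water and at 10.54 and 10.44 with low-dose RE. Lrrtm1, a synaptic adhesion protein, was at 7.62 and 5.04 with water and at 8.46 and 7.63 with low-dose RE. Npnt, nephronectin, a matrix protein, was at 9.73 and 7.27 with water and at 10.27 and 9.97 with low-dose RE. In each of these last 3 the water replicate 2 value set the difference: without it the differences of 1.715, 1.715 and 1.62 were 0.43, 0.425 and 0.39, past the threshold in none. They also missed it without low-dose replicate 1, at 1.665, 1.30 and 1.47, and without low-dose replicate 2, at 1.765, 2.13 and 1.77. Lrrtm1 and Npnt missed it without any 1 of the 4 arrays outside the comparison.

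The lower side held genes of the cerebellum. Slc1a6, the glutamate transporter EAAT4 of Purkinje cells, was at 7.64 and 11.81 with water and at 7.48 and 6.69 with low-dose RE. Calb1, the calcium buffer calbindin, which Purkinje cells hold in quantity, was at 12.79 and 15.20 with water and at 12.39 and 12.38 with low-dose RE. Their differences of -2.64 and -1.61 were -0.555 and -0.405 without water replicate 2. Adamts18, Btg1, Dusp5, Sgpp2 and Stk17b behaved alike, with differences from -2.50 to -1.765 that became -0.755, -0.68, -0.58, -0.70 and -0.425, none of them past the threshold. All 7 missed it without low-dose replicate 2, with differences from -2.605 to -1.135, and all but Sgpp2 without low-dose replicate 1, from -3.035 to -1.455. All but Btg1 missed it without either high-dose array.

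Fgf1 and H4c3 differed from that pattern. Fgf1, a fibroblast growth factor that acts on neurons and glia, was at 9.46 and 11.34 with water and at 8.66 and 8.12 with low-dose RE. Its difference of -2.01 (SE 0.57) was -1.07 without water replicate 2, still past the threshold, and it missed the threshold at -1.74 without low-dose replicate 2. The low-dose arrays were the lowest of the 8. H4c3, 1 of several near-identical genes for histone H4 that probes may not tell apart, was at 11.75 and 10.23 with water and at 9.79 and 8.65 with low-dose RE. Its difference of -1.77 was -2.53 without water replicate 2, and it missed the threshold without water replicate 1 at -1.01 and without low-dose replicate 2 at -1.20.

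**Figure D5:**
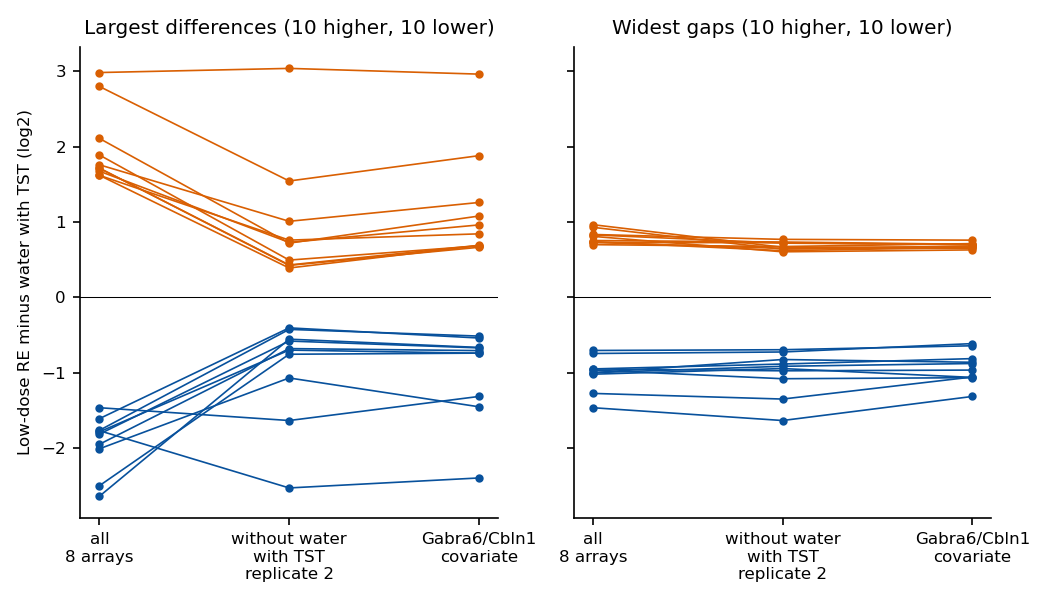
Difference of low-dose RE from water with TST (y axis, log2) for the 20 genes with the largest differences (left) and the 20 with the widest gaps (right), in the fit on all 8 arrays, without water with TST replicate 2 and with the Gabra6 and Cbln1 covariate, 1 line per gene. On the left 17 of 20 shrink by more than 1.5 times in the second fit, whereas the lines on the right stay level, which is how those genes were chosen.

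Genes of the pathways that the treatment and the test bring to mind were read next. Over all genes, 1.79% were past the threshold higher and 1.68% lower. Of 25 measured Nrf2 targets, 13 had a higher and 12 a lower mean with low-dose RE, with a median of 0.015, and none was past the threshold higher. Gstm1, a glutathione transferase, was the 1 past it lower: it was at 14.87 and 14.91 with water and at 14.35 and 14.19 with low-dose RE. The groups were well apart, but all 4 other arrays, from 14.20 to 14.55, were also below the water arrays with TST. Its difference of -0.62 missed the threshold without water replicate 2 at -0.60 (limma, unadjusted p = 0.0634), without water replicate 1 at -0.64 and without low-dose replicate 2 at -0.54.

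None of 22 glucocorticoid targets passed, with a median of 0.065. Fkbp5, a co-chaperone of the glucocorticoid receptor that its hormone induces, was at 12.11 and 10.32 with water and at 11.83 and 12.19 with low-dose RE, and its groups overlapped. Nr3c1, the receptor itself, differed by 0.215, and Crh, the releasing hormone that starts the stress axis, by -0.01. Heat shock chaperones had a higher mean in 13 of 16, with a median of 0.20 and none past the threshold higher. Hspb8, a small heat shock protein, was past it lower at -0.895 and missed it without water replicate 2 at -0.41, without low-dose replicate 1 at -0.995 and without low-dose replicate 2 at -0.795.

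Circadian clock genes had a median of -0.095 over 19, with 1 past the threshold in each direction. Per3, a period gene of the clock's negative limb, was at 11.77 and 11.70 with water and at 11.23 and 10.75 with low-dose RE. The other 4 arrays were between, from 11.31 to 11.53. Its difference of -0.745 was past the threshold by limma (unadjusted p = 0.0159), and it was -0.78 without water replicate 2, again past it. It missed the threshold without low-dose replicate 2 at -0.505. Rorb, a nuclear receptor that also marks cortical neurons and thalamus, differed by 1.515 and by 0.355 without water replicate 2. It missed the threshold in that fit, without low-dose replicate 1 at 1.46, without low-dose replicate 2 at 1.57 and without any 1 of the 4 arrays outside the comparison.

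Immediate early genes, the first to respond to neuronal activity, had a median of 0.445 over 26 genes. That median was 0.00 against water replicate 1 and 1.025 against replicate 2. Egr1 was at 13.73 and 11.06 with water and at 13.90 and 13.99 with low-dose RE, and Fos was at 8.02 and 8.06 with water and at 8.13 and 7.93 with low-dose RE. Bdnf, a growth factor of neurons, was at 10.18 and 9.18 with water and at 10.13 and 10.24 with low-dose RE. Fos and Bdnf overlapped between the groups, and Egr1 was above water replicate 1 by a small margin on each low-dose array. None of the 3 passed the threshold. Of the 26 genes on the list, 1 was past it higher and 1 lower, and none was with the covariate.

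Of 15 measured catecholamine genes, 1 was past the threshold higher and 1 lower, both named after their values were seen. Drd5, a dopamine receptor, was at 8.18 and 7.05 with water and at 8.41 and 8.57 with low-dose RE. Drd4, another dopamine receptor, was at 6.92 and 7.20 with water and at 6.45 and 6.38 with low-dose RE. The groups did not overlap in either gene. Their differences of 0.875 and -0.645 missed the threshold with the covariate, without water replicate 2 at 0.31 and -0.505, without low-dose replicate 1 at 0.955 and -0.68 and without low-dose replicate 2 at 0.795 and -0.61. Drd5 missed it without any 1 of the 4 arrays outside the comparison as well. None of 16 serotonin genes and none of 18 markers of monoaminergic neurons passed. Th, the rate-limiting enzyme of dopamine and noradrenaline synthesis, differed by -0.495 (SE 0.60), Tph2, its counterpart for serotonin in neurons, by -0.675 (SE 0.48), and Maoa, which breaks these transmitters down, by -0.725 (SE 0.35). The groups overlapped for Th and Tph2. Maoa was at 10.23 and 11.10 with water and at 10.21 and 9.67 with low-dose RE, with water replicate 1 next to low-dose replicate 1.

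Among glial lists, astrocyte markers had a lower mean in 15 of 18 genes, and 3 were past the threshold lower (1.68% of all genes were), all named after their values were seen. Slc1a3, the glutamate transporter GLAST, which Bergmann glia of the cerebellum also hold in quantity, was at 11.91 and 12.59 with water and at 11.49 and 11.28 with low-dose RE. Gjb6, connexin 30 of astrocyte gap junctions, was at 10.45 and 10.20 with water and at 9.99 and 9.49 with low-dose RE. Sox9, a transcription factor of astrocytes, was at 10.38 and 10.78 with water and at 10.03 and 9.94 with low-dose RE. None of the 3 overlapped between the groups. With the covariate all 3 missed the threshold. Without water replicate 2, Gjb6 was past it at -0.71, and Slc1a3 and Sox9 missed it at -0.525 and -0.395. Without low-dose replicate 2 all 3 missed it, Slc1a3 at -0.76, Gjb6 at -0.335 and Sox9 at -0.55. Gjb6 also missed it without water replicate 1, at -0.46, and Sox9 without low-dose replicate 1, at -0.64. Both missed it without any 1 of the 4 arrays outside the comparison. Gfap, the astrocyte filament, differed by -0.295 and did not pass. The list median was -0.05 against water replicate 1, with 8 genes higher and 10 lower, and -0.52 against water replicate 2. With the covariate it was -0.11. The list mean was -0.09 and 0.46 on the water arrays and -0.05 and -0.42 on the low-dose arrays. Low-dose replicate 1 thus lay no lower than water replicate 1, and low-dose replicate 2 was the lower of its pair.

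Microglial markers had a median of 0.33, which was -0.24 against water replicate 1 and 0.82 against replicate 2. Aif1, the microglial protein Iba1, was at 8.97 and 6.43 with water and at 9.26 and 7.51 with low-dose RE, a wide spread in either pair. Ctss, the 1 microglial marker past the threshold, was at 10.17 and 9.43 with water and at 10.64 and 10.42 with low-dose RE. Its difference of 0.73 was 0.36 against water replicate 1, and it missed the threshold with the covariate at 0.34. Myelin markers split evenly, 9 higher and 9 lower, and Mbp, myelin basic protein, was at 17.51 and 17.90 with water and at 17.59 and 17.29 with low-dose RE. The low-dose arrays themselves differed in several lists: from replicate 1 to replicate 2 the list mean of choroid plexus markers was 0.64 apart, that of striatal projection neurons -0.55 and that of thalamic neurons -0.36. The part of the dissected regions in these values was not tested.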

How the data were processed

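Total RNA of 8 samples was read on 1 Clariom S array each, in 4 groups of 2 taken from the sample titles. The authors normalized them by RMA, the robust multichip average, with the software Transcriptome Analysis Console, per the submitters' processing notes and design text. The deposited values are log2 RMA values with 2 decimals, from 2.76 to 19.79, and were used as deposited. As 1359 of them exceed 16, the limit of a 16-bit scanner, the size of a difference is that of the deposited scale. Array medians ran from 7.45 to 7.51. Each group held only 2 arrays, and the water arrays with TST differed by more than 1 log2 unit at 2487 genes.

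Gene symbols came from the platform annotation, updated by gene ID: 19572 rows had 1 symbol, 2634 had none and 0 had several. Group means were fitted on all 22206 rows and 8 arrays with limma 3.58.1 (R 4.3.3), with two-sided tests adjusted over every row after Benjamini and Hochberg, and reported for 19505 genes. The threshold was the study's, a fold above 1.2 (0.263 on the log2 scale) at an unadjusted p under 0.05. The script was tested on simulated data. Genes were named by rule, from those with a usual symbol and the higher group mean above 7.47, the overall median: the 10 per direction with the largest difference, the 10 with the widest gap between the groups among those moving by less than 1.5 times when water replicate 2 was left out and in the covariate fit, a fixed set, and up to 4 members per list. The 41 gene lists, the comparison and the rule were chosen with earlier results of these data known. Alternatives were a Gabra6 and Cbln1 covariate, quantile normalization, a trended robust variance prior, leaving out the dimmest 25% of rows, the 4 arrays alone, the analysis of variance of the methods, the replicate number as a block, and leaving out each array. The replicate numbers are only shared names.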

Additional observations from a re-analysis of the deposited data

How the results depend on the processing

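The count of 677 genes past the study's threshold was 430 by the analysis of variance of the methods and 212 with only the groups compared, and it lay between 424 and 3388 when 1 array was left out. It was 564 with the Gabra6 and Cbln1 covariate (237 of them among the 677), 813 after quantile normalization, 646 with the trended robust prior and 492 without the dimmest 25% of rows. With the replicate number as a block it was 594, of which 524 were among the 677; same-numbered arrays of the compared groups deviated together with r = 0.169, from 2 pairs only, and the block ended the call of Slc1a6, Adamts18, Stk17b and Brd9 among the named genes. The count at an adjusted p of 0.05 was 0 in all of these and lay between 0 and 888 when 1 array was left out, with 888 without water with TST replicate 1 and 1 without low-dose replicate 1; a group then rests on 1 array that is assumed to vary like the others, and the cause was not tested.

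With 1 array left out in turn, these differences crossed 0 or nearly so: Cbln1 from -6.61 to 0.19, Crh from -0.04 to 0.02, Nr3c1 from -0.055 to 0.485, Fkbp5 from -0.10 to 1.69, Fos from -0.11 to 0.09, Th from -1.065 to 0.075, Aif1 from -0.585 to 1.955, Avp from -1.415 to 0.495, Fat2 from -6.805 to -0.005, Ppp1r17 from -6.97 to 0.01. Likewise they ran for Arhgef33 from -7.455 to 0.225, Neurod6 from -0.41 to 4.14, Dkk3 from -0.38 to 2.76, Mpped1 from -0.42 to 2.58, Tbr1 from -0.13 to 4.27, Nrgn from -0.465 to 4.365, Fezf2 from -0.33 to 3.83, Kl from -0.275 to 3.085, Aqp4 from -2.065 to 0.225, S100b from -2.125 to 0.005. The last were Itgam from -0.11 to 1.36, Gpr34 from -0.025 to 1.685, Rgs5 from -0.355 to 0.005, Ptgs2 from -0.07 to 3.08, Srxn1 from -0.895 to 0.105, Zbtb16 from -0.28 to 1.91, Hspa2 from -0.355 to 1.665, Npas2 from -0.135 to 2.835, Cry1 from -1.03 to 0.09. With the covariate, 7 turned: Cbln1 to 0.228, Aif1 to -0.426, Fat2 to 0.156, Arhgef33 to 0.152, Mpped1 to -0.037, Aqp4 to 0.149 and Hspa2 to -0.217. None of these genes was past the threshold. Cbln1 is part of the covariate, so in that fit its difference mirrors that of Gabra6 (-0.228) by construction, and its turn carries no information. Of 40 list medians, 11 kept 1 sign under quantile normalization, the covariate and leaving out each of the 4 arrays compared: the thalamic median lay between 0.46 and 1.05 and the meningeal between -0.575 and -0.39 with 1 array left out.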
